A study of Sus scrofa with 54 samples.

Results

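The 2 indoor rearing conditions were compared in the ileum of the pig at 28 days of age: 6 piglets moved into isolators (IR) and 6 piglets left with the sow (IN), which are 12 of the 54 arrays of the series. The arrays were chosen by their labels alone, the group and the day. All 12 piglets were born to indoor-housed Large White × Landrace sows inseminated by one boar, and gave 1 array each. The IR piglets left the sow at 24 hours of age for individual isolator units, were dosed daily with an antibiotic cocktail (Baytril and Amoxinsol) and drank commercial milk replacer from an automated feeder. The IN piglets stayed with the sow in the indoor facility until day 28, the day of weaning. The study describes isolator, replacer and antibiotic for the IR piglets only. Solid creep feed was given from day 29 onwards, so neither group had been put on it. Isolator housing, the move to its university site, antibiotics, milk replacer and separation from the sow therefore came together in 1 group and cannot be told apart. A further 6 arrays of piglets suckled outdoors (OUT) at day 28 shared the model fit and are given as a second reference. The study set IR and IN each against OUT, and the direct comparison of the 2 indoor groups asks what differed when the sows and the site of birth were the same.

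The ileum is the last stretch of the small intestine, where absorptive enterocytes take up fat, bile acids and the remaining nutrients above a wall rich in lymphoid tissue. Cells that receive cholesterol and unsaturated fat from food hold the SREBP transcription factors inactive, and cells that receive little activate them and switch on the enzymes of cholesterol and fatty acid synthesis. PDK4 acts on the other side of fuel choice, since it blocks the entry of pyruvate into the citric acid cycle and is induced by fatty acids, by fasting and by glucocorticoids, and is repressed by insulin.

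The tissue carried the transcripts of absorptive epithelium. Villin (VIL1), the actin bundler of the brush border, lay between 12.16 and 12.39 on the log2 scale in IR and between 11.03 and 12.33 in IN, and aminopeptidase N (ANPEP) lay above 12 on all 12 arrays. Of the arrays' quality measures, the medians ran from 3.98 to 4.09 and the difference between the 3′ and 5′ GAPDH control probesets from 0.23 to 0.46 in IR and from 0.33 to 0.61 in IN, with IN replicate 3 the highest. The Y-linked EIF1AY was above 9 in 4 IR and in 4 IN piglets and below 4 in the others, so both groups had the same number of piglets with the transcript. IN was the more variable group: the median SD over probesets was 0.377, against 0.251 in IR and 0.287 in OUT, the SD of IN exceeded that of IR in 17539 of 23999 probesets, and the mean correlation of an array with its own group was 0.935 to 0.955 in IN and 0.975 to 0.983 in IR. IN replicate 3 stood lowest on that measure. Arrays carry no read counts, so the number of arrays limits the precision.

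Of 23999 probesets (the sets of oligonucleotides that each measure 1 transcript), 119 were called different between IR and IN by limma, with p under 0.01 before adjustment and at least a 2-fold change, which is 0.496% of those tested. Higher in IR were 82 probesets (0.342%) and lower 37 (0.154%). Platform annotation gave a single symbol to 55 of them, which stand for 35 genes higher and 14 genes lower in IR. Of these 49 genes 25 had several probesets, all called in 3 of them and with differences of both signs in 4. The higher genes were led by SCD, INSIG1, SQLE and ELOVL6, of fatty acid and sterol metabolism, and the lower genes by PDK4. With the Benjamini-Hochberg adjustment over all probesets 1 probeset, for PDK4, passed 0.05 in limma, while 1619 had an unadjusted p under 0.05. The groups did not overlap at all in 82 probesets (0.342%), of which 27 were among the 119 called. The number of calls depended on single piglets: higher and lower calls came to 147 and 88 without IN replicate 1, to 53 and 23 without IR replicate 3, to 54 and 29 without IR replicate 4, and to 53 and 34 without IN replicate 3.

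**Figure D1:**
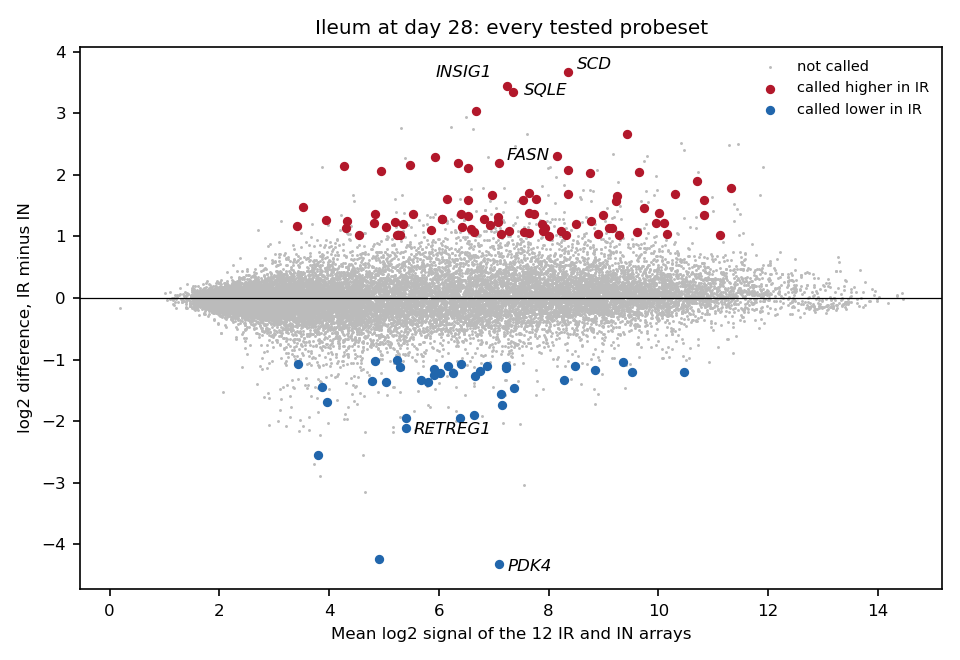
log2 difference IR minus IN at day 28 (vertical axis) against the mean log2 signal of the 12 arrays (horizontal axis) for each of 23999 probesets, with the 82 called higher in IR in red, the 37 called lower in blue and the rest in grey. The 2 PDK4 probesets stand alone at the bottom, below -4, and SCD, INSIG1 and SQLE lie at the top, between 3.34 and 3.67.

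PDK4, pyruvate dehydrogenase kinase 4, showed the largest difference of all the named genes. At its brighter probeset the IR piglets lay at 4.32, 6.17, 3.47, 4.78, 5.50 and 5.38 and the IN piglets at 8.74, 10.28, 8.49, 9.76, 10.41 and 7.91, in the order of their replicate numbers. The highest IR piglet was thus below the lowest IN piglet. PDK4 was lower in IR by a log2 difference of -4.33 ± 0.53 (SE, n = 6 per group), a 20.1-fold difference (limma, adjusted p = 0.00673; two-sided exact permutation p = 0.00216, the smallest that 6 against 6 can give). The second PDK4 probeset gave -4.23 ± 0.67 (limma, adjusted p = 0.0828), again without overlap. The OUT piglets ranged from 7.37 to 9.61 at the brighter probeset and so lay with IN, and PDK4 was called under every alternative run. Over the alternatives its adjusted p ran from 7.17e-06, with all 9 groups of the series in the fit, to 0.118, and it was 0.0515 with only the IR and IN arrays fitted, where fewer arrays estimate the spread. In ileum as a whole, fewer cells with a transcript and less of it per cell cannot be told apart, here and for every gene that follows.

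No other gene of fat burning was called. Of 18 measured members of the list of fatty acid oxidation and PPAR targets, PDK4 was the only member called, and the median difference of the list was 0.09, against -0.01 over all probesets. Of the 18 differences 14 were above 0, against 47.3% of all probesets. CPT1A, which carries long fatty acids to the mitochondrion, differed by 0.06 ± 0.39, with a sign that turned in 4 of the alternatives. ANGPTL4, a secreted inhibitor of lipoprotein lipase, gave -0.77 ± 0.50, and PLIN2, a coat protein of lipid droplets, -0.48 ± 0.40. Neither passed the test.

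SCD, stearoyl-CoA desaturase, which makes monounsaturated fatty acids, had the largest rise among all called probesets. Its IR piglets ranged from 9.79 to 11.04 with a median of 9.94 and its IN piglets from 4.34 to 8.41 with a median of 6.35. Every IR piglet stood above every IN piglet, and the difference was 3.67 ± 0.79 (SE, n = 6 per group), or 12.8-fold (limma, adjusted p = 0.26; exact permutation p = 0.00216). FASN, the synthase that builds palmitate, ran from 7.39 to 9.04 in IR and from 4.74 to 7.35 in IN, and rose by 2.20 ± 0.53. Its lowest IR piglet, replicate 1, was 0.04 above its highest IN piglet, also numbered 1, and its other 3 probesets, dim in both groups, gave -0.01 to 0.62 and were not called. ELOVL6, which lengthens palmitate, ran from 8.71 to 10.03 in IR and from 4.83 to 9.98 in IN. Its groups overlapped through IN replicate 1 alone, the difference was 2.30 ± 0.79, and the call was lost in 16 of 24 alternatives, among them the omission of any single IR piglet.

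These 3 genes were the ones called among 12 measured members of the fatty acid synthesis list, whose median difference was 0.50. All 12 differences were above 0, as were 47.3% of all probesets. SREBF1, the transcription factor SREBP-1, gave 0.62 ± 0.32 and was not called. Acetyl-CoA carboxylase (ACACA), the first committed enzyme of the pathway, was represented by a dim probeset at 0.27 ± 0.17 that was not called and by a brighter one, named only in the study's supplementary table, that was called at 1.28 ± 0.25 with no overlap between the groups (IR from 7.21 to 7.84, IN from 5.39 to 6.94). Called beside them was LPCAT3, which places polyunsaturated fatty acids into phospholipids, at 1.37 ± 0.43.

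Cholesterol synthesis held the largest share of called members of all the gene lists. Of 11 measured enzymes 8 were called higher in IR and none lower, against 0.342% of all probesets, and the median difference over the list was 1.59. SQLE, squalene epoxidase, a rate-limiting step, stood at 7.50 to 9.97 in IR (median 9.44) and at 4.02 to 7.93 in IN (median 5.04). IN replicates 1 and 6 lay above IR replicate 1 and every other IN piglet lay below all IR piglets, and SQLE rose by 3.34 ± 1.05, or 10.1-fold. Its call was lost without any 1 of IR replicates 3 to 6 or IN replicates 2 to 5, at differences of 3.01 or more.

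The other called enzymes, given here in the order of the pathway, had smaller differences than SQLE. HMGCS1, which makes HMG-CoA, ran from 9.20 to 11.36 in IR and from 7.70 to 9.80 in IN and rose by 2.04 ± 0.63. FDPS, which makes farnesyl diphosphate, rose by 1.70 ± 0.52 and FDFT1, squalene synthase, by 1.58 ± 0.49, the latter without overlap of the groups. Past lanosterol, CYP51, the sterol demethylase, rose by 1.59 ± 0.43 with no overlap of the groups (IR from 10.77 to 11.99, IN from 9.23 to 10.77). MSMO1, the methyl sterol oxidase, rose by 1.90 ± 0.59, HSD17B7 by 1.05 ± 0.35 and SC5D, the lathosterol desaturase, by 1.66 ± 0.50. CYP51 kept its call under every alternative, and the other 7 lost theirs in at least 1, mostly where an IR or IN piglet was left out. NSDHL (1.40 ± 0.52) and ACAT2 (1.57 ± 0.72) had differences of like size that did not pass p under 0.01, and TM7SF2, near the floor of the array in both groups, gave 0.24 ± 0.20.

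Further enzymes of the pathway were named only by the study's supplementary table, which lists genes that differed from OUT on these same arrays, so they are no independent count. DHCR7, the last step to cholesterol, rose by 3.04 ± 0.66 at one probeset, where the groups did not overlap, and by 2.15 ± 0.51 at the other. MVD, which makes isopentenyl diphosphate, was called at 1.67 ± 0.57.

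**Figure D2:**
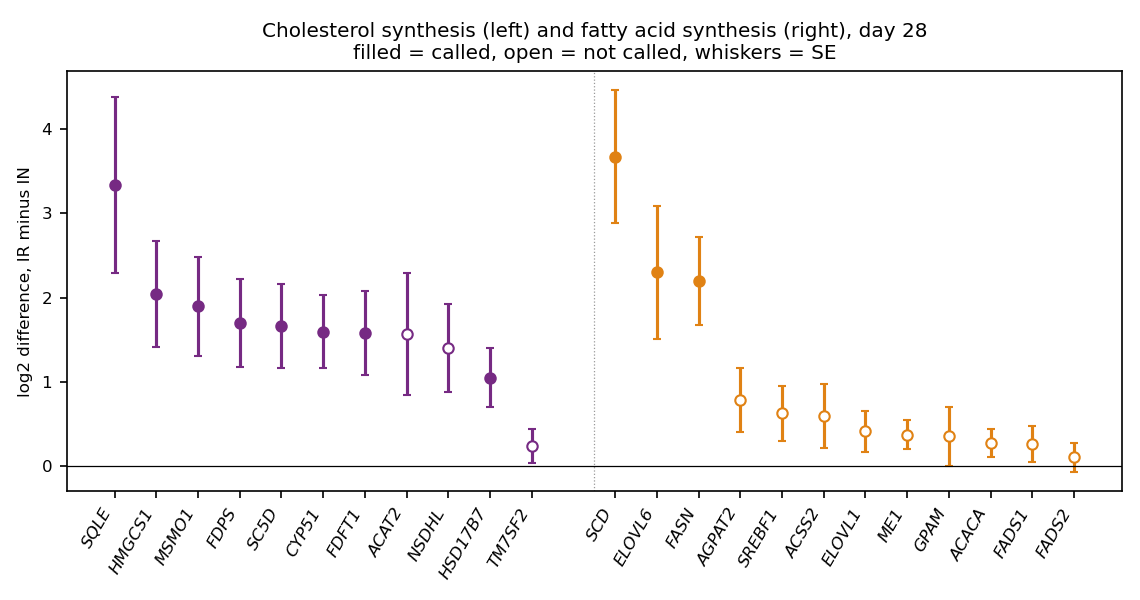
log2 difference IR minus IN at day 28 with its SE (whiskers) for the 11 measured cholesterol synthesis enzymes (left, purple) and the 12 measured genes of fatty acid synthesis (right, orange), 1 point per gene, filled where called and open where not. All 23 points lie above 0, and 11 of them are filled, from HSD17B7 at 1.05 to SCD at 3.67.

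Genes that sense and take in sterols were mixed. INSIG1, an endoplasmic reticulum protein that holds SREBP back and is itself an SREBP target, was called at both of its probesets. The first ran from 8.21 to 9.67 in IR and from 3.78 to 8.05 in IN, with a difference of 3.44 ± 0.99 and no overlap, and the second gave 1.79 ± 0.48, also without overlap. IN replicates 1 and 6, at 7.94 and 8.05 on the first probeset, stood close beneath the IR piglets and the other 4 IN piglets lay at 5.03 or less. SREBF2, the transcription factor SREBP-2, at 0.94 ± 0.28, and NPC1, which exports cholesterol from lysosomes, at 0.88 ± 0.25, stayed under the 2-fold mark and were not called. Of the 9 members of the list of sterol uptake and sensing 1 was called, INSIG1, and its median difference was -0.07.

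**Figure D3:**
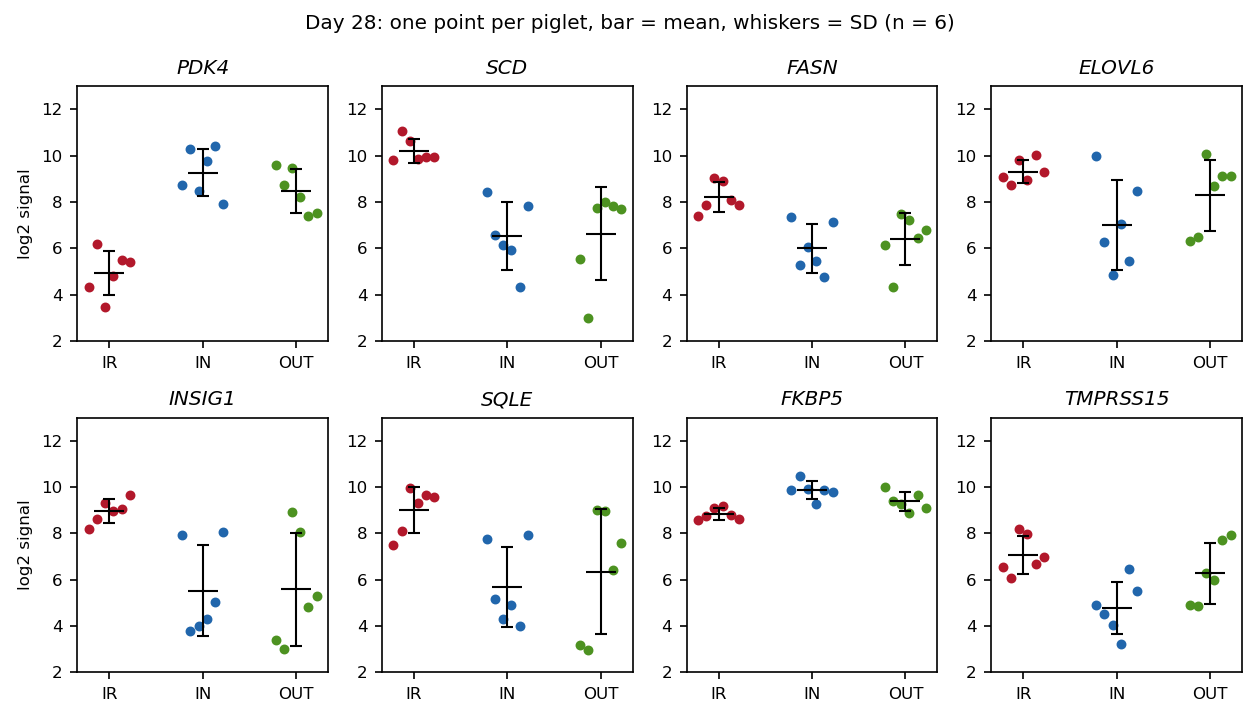
log2 signal at day 28 of 8 genes in each piglet of IR, IN and OUT (1 point per piglet, horizontal bar the group mean, whiskers the SD, n = 6 per group). PDK4 separates IR from the other 2 groups downwards and SCD upwards, while in INSIG1 and SQLE a pair of IN piglets reaches close to IR and the OUT piglets are spread over the whole range.

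The lipid genes varied together among the IN piglets. The mean over the 11 cholesterol synthesis enzymes was 8.36 to 9.77 in IR, with replicate 1 the lowest, and in IN it was 8.70 in replicate 1, 8.65 in replicate 6 and 6.93 to 7.78 in the other 4. IN replicates 1 and 6 held the 2 highest IN values in 10 of the 11 enzymes and in 8 of the 12 fatty acid genes. Of 12 measured enterocyte markers none was called, 4 had p under 0.05, and all 12 differences were above 0, against 47.3% of all probesets, with a median of 0.40. Their mean was 12.18 to 12.50 in IR and 11.56 to 12.48 in IN, where replicates 2 and 3 were the lowest and replicate 4 the highest. IN replicate 4, with the highest enterocyte mean in the group, had the lowest cholesterol synthesis mean. The part of epithelial content in the lipid differences was not tested. IN replicate 1, the IN piglet nearest to IR for these genes, raised the calls to 147 higher and 88 lower when it was left out.

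**Figure D4:**
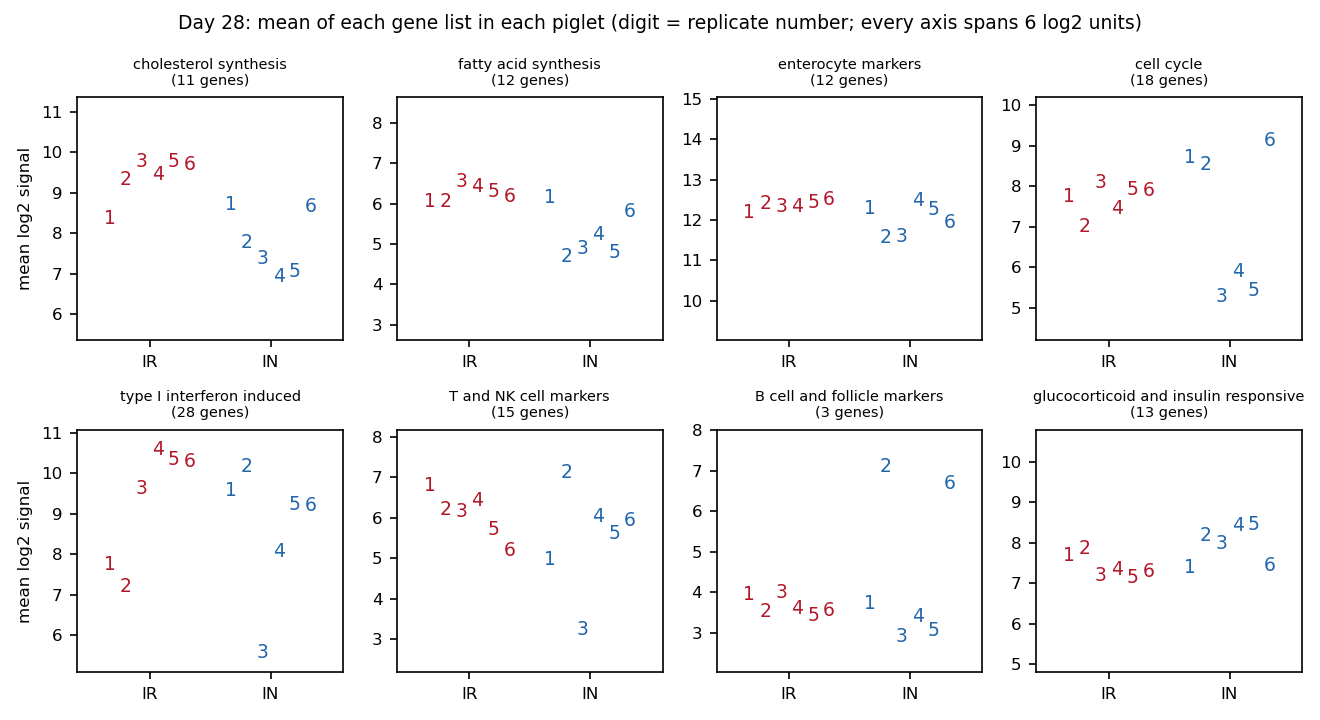
Mean log2 signal over 8 gene lists in each IR (red) and IN (blue) piglet at day 28, each piglet drawn as its replicate number, with all vertical axes spanning 6 log2 units. The cholesterol synthesis means of IN 1 and 6 lie just above the lowest IR piglet, the cell cycle means of IN fall into an upper and a lower set on either side of the IR piglets, IN 3 is low for interferon induced genes and T and NK cell markers, and IN 2 and 6 are high for B cell markers.

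Of 13 measured genes that respond to glucocorticoids or insulin, 2 were called, FKBP5 and PER1, both lower in IR, against 0.154% of all probesets, and 11 were not called. FKBP5, the co-chaperone that glucocorticoids induce to restrain their own receptor, ran from 8.56 to 9.16 in IR (median 8.78) and from 9.28 to 10.47 in IN (median 9.88). The groups did not overlap, and FKBP5 fell by 1.04 ± 0.20 on the log2 scale (limma, adjusted p = 0.204; exact permutation p = 0.00216). It lost its call in 5 of 24 alternatives, among them those without IR replicate 1 or 6 or IN replicate 2, where the fold dropped under 2. PER1, a clock gene that glucocorticoids also induce, ran from 6.87 to 8.64 in IR and from 8.46 to 9.65 in IN and fell by 1.10 ± 0.31, while a PER1 probeset near the floor of the array gave -0.05. The next members, TSC22D3 (-1.07 ± 0.39), KLF9 (-0.97 ± 0.34), FOXO1 (-0.71 ± 0.41) and DUSP1 (-0.66 ± 0.32), did not pass the test, and the median of the list was -0.66, with 10 of 13 below 0. The list's mean was 7.39 and 7.45 in IN replicates 1 and 6, within the IR range of 7.14 to 7.85, and 7.98 to 8.45 in the other 4 IN piglets. In the clock list PER1 was the only one of 7 members called.

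Among the other genes called higher in IR were TMPRSS15, ST14, SPINT1 and OVOL1, which belong to none of the gene lists. TMPRSS15, enteropeptidase, the brush border enzyme that activates trypsinogen, ran from 6.08 to 8.18 in IR and from 3.21 to 6.46 in IN and rose by 2.29 ± 0.60. Only IN replicate 5 reached into the IR range, and the call held in every alternative. ST14, the epithelial protease matriptase, rose by 1.35 ± 0.37 and SPINT1, a Kunitz inhibitor of that protease, by 1.22 ± 0.39. OVOL1, an epithelial zinc finger repressor, had the smallest unadjusted p after the PDK4 probesets among the named genes, with IR from 6.65 to 8.47, IN from 5.34 to 6.57, no overlap and a rise of 1.58 ± 0.28 (limma, adjusted p = 0.117). Its other probeset, near the floor of the array, gave 0.25. The OUT mean of OVOL1, 7.23, was near that of IR, 7.32, and away from that of IN, 5.73. MYH14, a nonmuscle myosin, and FRMD3, a FERM domain protein, both named only from the study's table, rose by 1.36 ± 0.29 and 2.11 ± 0.43. The OUT mean was also nearer IR for SPINT1 (IR minus OUT 0.17, IN minus OUT -1.05) and MYH14 (0.18 and -1.18). It was less clearly so for ST14 (0.55 and -0.81) and TMPRSS15 (0.79 and -1.50). For FRMD3 the OUT mean was nearer IN (1.63 and -0.48).

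Genes of sugar breakdown and others were among the smaller rises. GAPDH, the glycolytic dehydrogenase, rose by 1.03 ± 0.32 and PFKP, platelet phosphofructokinase, by 1.03 ± 0.25. The other 4 GAPDH probesets were not called and ran from -0.06 to 0.32. GAPDH lost its call in 8 of 24 alternatives, and without IN replicate 3, at 8.93 the lowest piglet, its difference was 0.69. ACO1, the aconitase that also senses iron, rose by 1.14 ± 0.35, with IN replicate 2 far below the rest, and without that piglet it gave 0.74 and was not called. BSG, the partner of lactate transporters, rose by 1.2 ± 0.40. TP53INP2, an autophagy regulator, rose by 1.61 ± 0.43 and PARP3, a DNA repair polymerase, by 1.47 ± 0.35 without overlap of the groups. MAPK3, the kinase ERK1, rose by 1.2 ± 0.36 and FOS, an immediate early transcription factor, by 1.04 ± 0.33. The remaining called genes with a symbol, NAP1L5, CRYBG1, LOC100522818, TIAM2, TRIM15, RHOF, TIAF1, ROGDI and TMEM189, rose by 1.01 to 1.36, and AMPD3 (study table) by 1.59 ± 0.41.

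Among the genes lower in IR, RETREG1, a receptor for the autophagy of endoplasmic reticulum, came after PDK4. Its brighter probeset held the IR piglets within 5.37 to 5.92, and the IN piglets ran from 5.50 to 8.97. IN replicate 1 lay inside the IR range and the other 5 above it, and the difference was -1.91 ± 0.49, with -2.10 ± 0.66 at the second probeset. AGTR1, the type 1 angiotensin receptor, ran from 4.72 to 5.63 in IR and from 5.84 to 6.85 in IN, without overlap, and fell by 1.37 ± 0.30. SH3BP5, NEIL1, a base excision repair glycosylase, and S1PR1, the receptor that guides lymphocytes out of tissue, fell by 1.47 ± 0.41, 1.45 ± 0.47 and 1.15 ± 0.36 at the probeset with the larger difference.

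Further lower genes were LOC100512700, at 6.15 to 6.72 in IR and 7.06 to 8.99 in IN, which fell by 1.55 ± 0.28 without overlap, and LOC100518827, which fell by 1.27 ± 0.26. The actin-binding ABLIM1 (-1.24 ± 0.39), the exosome subunit EXOSC9 (-1.13 ± 0.30), ARL6IP5 (-1.11 ± 0.34) and LOC100522498 (-1.02 ± 0.29) completed the 14 genes. The calls of ABLIM1, S1PR1, ARL6IP5 and NEIL1 were lost, among other settings, without IN replicate 2, the piglet with the highest or second highest value in each at the probeset described. The IN replicates 2 and 6 were also those with B cell transcripts. Without both of them these 4 genes were not called, in a fit with fewer IN piglets that was chosen after those transcripts were seen. Over all alternatives the difference nearest 0 was -0.83 for ABLIM1, -0.85 for S1PR1, -0.75 for ARL6IP5 and -0.97 for NEIL1. The part of B cell content in these genes was not tested.

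Type I interferon induced genes, which cells switch on in response to viral or microbial nucleic acid, were not called in either direction in any of 28 measured members. The differences leaned upwards, with 27 of 28 above 0 and a median of 0.57. The spread within both groups was wider than the difference between them: the mean over the list was 7.75 and 7.20 in IR replicates 1 and 2 and 9.64 to 10.58 in the other IR piglets, and in IN it ran from 5.58 in replicate 3 to 10.17 in replicate 2. ISG15, a ubiquitin-like protein, gave 0.68 ± 1.62 and IRF7, a master regulator of the response, 0.59 ± 1.07, and without IN replicate 3 both signs turned, to -0.70 and -0.01. IFIT2, which binds viral RNA, gave 0.65 ± 1.06. IN replicate 3 was the lowest IN piglet in 26 of the 28 genes.

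GBP2, a guanylate-binding protein that interferon gamma induces, was called at a probeset named by the study's table, at 10.22 to 11.24 in IR and 2.93 to 9.63 in IN (2.66 ± 0.91), where the groups did not overlap. Its platform-named probeset gave 2.51 ± 0.98 and GBP1 1.68 ± 0.73, and neither was called. IN replicate 3 was more than 4 log2 units below the next IN piglet in all of these probesets, and without it the called probeset still differed by 1.63, with its call kept, while GBP1 differed by 0.90 and the platform-named GBP2 probeset by 1.59. The call was lost in 12 of 24 alternatives, among them the omission of any single IR piglet. IRF1, a transcription factor of the interferon response, ran from 10.66 to 12.55 in IR and from 8.73 to 11.02 in IN and rose by 1.34 ± 0.41. Its call was lost in 5 of 24 alternatives, among them those without IR replicate 3 or 4 or IN replicate 3. IFNG itself reached 8.52 in IR replicate 3 and lay at 2.29 to 3.39 in IN (2.13 ± 0.83). It was not called, and 4 of the 6 IR piglets were at 5.33 or below.

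Genes that load and show peptides on class I molecules had differences above 0 in all 15 measured members, with a median of 0.64 and none called. SLA-7, a class I heavy chain, gave 0.70 ± 0.22, under the 2-fold mark. The immunoproteasome subunits PSMB10 (1.31 ± 0.47) and PSMB8 (1.14 ± 0.62) and the peptide loading genes TAP1 (1.30 ± 0.70) and TAPBP (1.13 ± 0.45) exceeded 2-fold without passing p under 0.01. IN replicate 3 was again the lowest IN piglet, in 13 of the 15, and without it PSMB10 gave 0.98, PSMB8 0.53, TAP1 0.61 and TAPBP 0.66, all under 2-fold. Class I heavy chains resemble each other closely, so the signals of SLA members may be shared between probesets.

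Chemokines and cytokines were called in none of 26 and none of 37 platform-named members. CCL28, an epithelial chemokine that draws antibody-secreting cells, was called at a probeset named by the study's table (2.19 ± 0.67, IR from 5.44 to 8.53, IN from 4.48 to 6.68) and not at its platform-named probeset (1.35 ± 0.74). CCL8 and CCL2, which attract monocytes, gave 2.11 ± 0.74 and 1.97 ± 0.80, and IN replicate 2 lay within or above the IR range for both. CXCR4, the receptor for CXCL12, gave -1.40 ± 0.67, with IN replicates 2 and 6 above 11 and every other piglet of both groups at 9.05 or below. For CXCR4 in IN against OUT at this age, the study reported a rise on the array but a fall by real-time PCR. IL15, an epithelial cytokine that sustains lymphocytes, gave 1.26 ± 0.51, CCR1 -1.26 ± 0.49, NFKBIA, an inhibitor of NF-kappaB, -0.88 ± 0.35 and CCL25, the chemokine of the small intestine, 0.49 ± 0.19.

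Antimicrobial and complement genes likewise held no call among 19 measured members each. DMBT1, a mucosal scavenger receptor that binds bacteria, was between 11.65 and 13.19 in all IR piglets and between 6.63 and 13.23 in IN, a difference of 2.49 ± 0.96. PI3, the elastase inhibitor elafin, gave 1.75 ± 1.0 and BPI, which binds endotoxin, 1.26 ± 0.59. C3, the central complement protein, was 13.17 to 13.91 in IR and 12.51 to 13.57 in IN (0.66 ± 0.19). The iron and metal genes TFRC, the transferrin receptor (2.28 ± 1.08), and MT1A, a metallothionein (2.31 ± 1.53), were not called.

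Markers of cell types other than enterocytes held no call, and most of the variation was among the IN piglets. The mean over 18 cell cycle genes was 7.02 to 8.10 in IR, and in IN it was 8.54 to 9.13 in replicates 1, 2 and 6 and 5.27 to 5.91 in replicates 3, 4 and 5, so the SD was larger in IN for all 18. The B cell receptor chain CD79B was at 9.79 and 9.50 in IN replicates 2 and 6 and between 2.37 and 3.04 in the other 10 piglets. T and NK cell markers averaged 5.19 to 6.80 in IR and 3.24 (replicate 3) to 7.11 (replicate 2) in IN, and CD3E, a chain of the T cell receptor complex, gave 0.91 ± 1.01. JCHAIN, the joining chain of secreted antibody, was 4.70 in IN replicate 3 and at least 10.91 in all others. GNLY, a protein of cytotoxic granules, gave 2.29 ± 0.97, MRC1, a macrophage receptor, 1.03 ± 0.41, the endothelial PECAM1 -0.77 ± 0.27 and the smooth muscle MYL9 1.29 ± 0.53. Granulocyte and mast cell markers averaged 2.85 to 3.42 in all 12 piglets and genes of pancreas and liver 2.86 to 3.28, near the floor of the array. The part of cell composition in the differences between the groups was not tested, and without IN replicates 2 and 6 the calls were 88 higher and 60 lower.

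Absorption genes were called in none of their lists. Of 15 genes of lipid absorption and apolipoproteins none was called, with a median of 0.19. Of the 15 differences 11 were above 0, against 47.3% of all probesets. DGAT2, which makes triglyceride, gave -2.04 ± 0.76, with IN replicates 3, 4 and 5 above 8 and every IR piglet below 6.5, and APOE gave -1.46 ± 0.66. Of 14 listed brush border enzymes and transporters, a list without TMPRSS15, none was called, VIL1 differed by 0.53 ± 0.17 and ANPEP by 0.58 ± 0.20. Of 25 genes of drug and steroid metabolism none was called, with ABCB1, an efflux pump, at 0.80 ± 0.23, FMO1 at -1.29 ± 0.45 and UGT2B31 at -2.17 ± 1.01. Class II presentation, bacterial sensing and NF-kappaB, extracellular matrix, epithelial junctions and heat shock chaperones held 13, 15, 20, 11 and 18 measured genes with no call and medians from -0.03 to 0.30. Subunits of oxidative phosphorylation were above 0 in 24 of 24 (median 0.21) and cytosolic ribosomal proteins in 2 of 21 (median -0.12), again with no call.

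The same contrast at day 5 and at day 56, in other piglets, showed which differences belonged to more than 1 age. Of the 82 probesets higher in IR at day 28, 23 were also called higher at day 5, when 64 of all probesets were (0.267%), and 71 had the same sign, against 47.5% of all probesets. At day 56, 2 of the 82 were called higher (29 of all probesets, 0.121%) and 28 had the same sign, against 50.8%. By then both groups were older and had been given creep feed since weaning, while the antibiotics of the IR piglets went on. Age and diet cannot be told apart here, and their parts were not tested. Of the 37 lower probesets, 1 was called lower at day 5 (24 of all, 0.100%) and 3 at day 56 (40 of all, 0.167%). For the cholesterol synthesis list the median difference, 1.59 at day 28, was 1.94 in the piglets of day 5 and -0.43 in those of day 56.

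The change between days was tested in a fit over all 54 arrays. Between day 28 and day 5 the difference IR minus IN changed in 78 probesets (0.325%) and between day 28 and day 56 in 281 (1.17%), 222 of them upwards at day 28. None passed 0.05 after adjustment in limma in either test, and 1245 and 1934 had an unadjusted p under 0.05. In the first test the brighter PDK4 probeset had IR minus IN at -1.02 ± 0.54 at day 5 and at -4.33 ± 0.53 at day 28 (change -3.31 ± 0.77, limma, adjusted p = 0.469), and it was still lower in IR at day 56 (-2.39 ± 0.49). IRF1 (change 1.46) and TP53INP2 (change 1.71) went from -0.12 and -0.11 at day 5 to 1.34 and 1.61 at day 28. LOC100512700 went from -0.14 to -1.55. MPDZ, a scaffold of epithelial junctions, turned from below 0 at day 5 (-1.01 and -1.15 at its probesets) to above 0 at day 28 (0.73 and 0.35), and THG1L and C6H18orf21 turned the other way, from 0.32 and 0.55 to -0.79 and -0.73.

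Lipid genes were among those whose difference changed between days 28 and 56. IR minus IN of SQLE went from 3.34 to -0.81 (change 4.14 ± 1.31), of INSIG1 from 3.44 to 0.01 (3.43 ± 1.03), of ELOVL6 from 2.30 to -0.69 (2.99 ± 1.11), of MSMO1 from 1.90 to -0.62 (2.52 ± 0.73), of HMGCS1 from 2.04 to -0.47 (2.51 ± 0.73), of FDPS from 1.70 to -0.76 (2.46 ± 0.63) and of FASN from 2.20 to 0.22 (1.98 ± 0.68). SCD was the exception in size, at 4.20 ± 0.62 at day 5, 3.67 ± 0.79 at day 28 and 1.55 ± 0.76 at day 56, and its change to day 56 was 2.12 ± 1.08, which did not pass. AGTR1 was lower in IR at each age (-1.02 ± 0.32, -1.37 ± 0.30 and -1.34 ± 0.40) and was called at all 3.

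**Figure D5:**
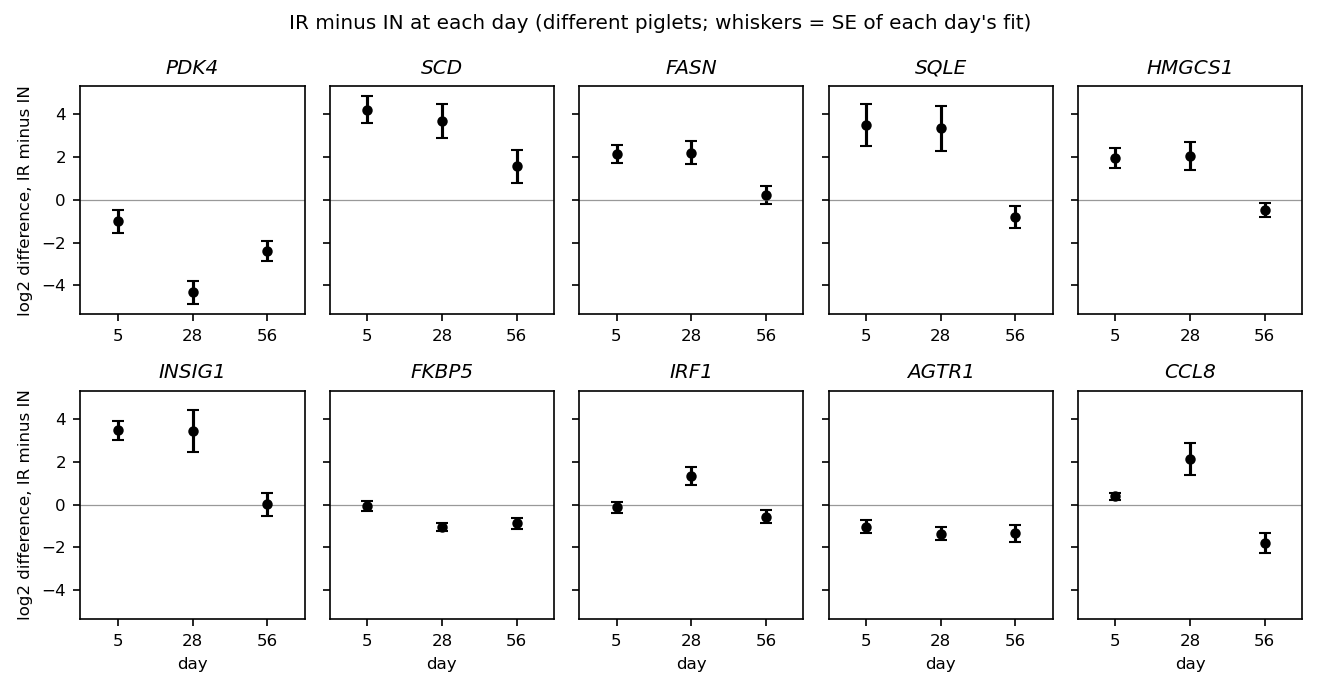
log2 difference IR minus IN with its SE (whiskers) at days 5, 28 and 56 for 10 genes, each day with 6 IR and 6 IN piglets of its own. The enzymes SQLE, HMGCS1 and FASN and INSIG1 are about as high at day 5 as at day 28 and near or below 0 at day 56, PDK4 is lowest at day 28, AGTR1 stays between -1.37 and -1.02, and CCL8 goes from 2.11 to -1.80.

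The smallest p of the second test belonged to CCL8, whose difference went from 2.11 at day 28 to -1.80 at day 56 (change 3.91 ± 0.75, limma, adjusted p = 0.101). Other defence genes changed the same way: DMBT1 from 2.49 to -2.30, PI3 from 1.75 to -2.91, the platform-named GBP2 probeset from 2.51 to -1.39 and CCL2 from 1.97 to -1.17. CPT1A went from 0.06 to -2.12 (change 2.18 ± 0.52) and LPIN2, a phosphatidate phosphatase, from 0.94 to -0.70. The arrestin domain gene ARRDC4 went from 0.98 to -0.23 and the clock output gene DBP from -0.14 to 1.36. TMPRSS15 went from 2.29 to -0.68, OVOL1 from 1.58 to -0.21, LOC100522818 from 1.25 to -0.68, RETREG1 from -2.10 to 0.52 and NEIL1 from -1.45 to 0.23. ARRDC4 did not overlap between IR and IN at day 28 (IR from 9.93 to 10.68, IN from 8.99 to 9.78) and missed the 2-fold mark by 0.02.

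Set against OUT at day 28, with which the IR and the IN contrast share arrays, the called genes fell into different patterns. For SCD, IR minus OUT was 3.57 and IN minus OUT -0.10, for INSIG1 3.37 and -0.07, for MSMO1 1.82 and -0.08, and for PDK4 -3.54 and 0.79, so OUT lay near IN. For OVOL1 the values were 0.09 and -1.49, for PFKP 0.21 and -0.82, for RHOF -0.04 and -1.16 and for LOC100512700 -0.27 and 1.28, so OUT lay near IR. The OUT mean was nearer to IN than to IR in 38 of the 82 higher probesets and in 17 of the 37 lower ones.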

How the data were processed

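Ileal RNA of 1 piglet per array was hybridized to GeneChip Porcine Genome arrays. The values used are log2 signals as deposited by the authors, who scanned with GCOS 1.2 and normalized by gcRMA, a step that fits a background from probe sequence and quantile normalizes all arrays, so a shift of the whole array would be hidden and dim probesets gather near 3. No count or depth exists for arrays. Groups, days and replicate numbers came from the labels. The members and the gene lists were chosen with earlier results of these data known.

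Of 24123 probesets 124 control probesets were left out (64 reporter probesets were kept) and 23999 fitted with limma 3.58.1 in R 4.3.3, without a filter on dim probesets, over the 18 arrays of day 28 with 3 groups and no block, and tested for IR minus IN. A call needed p under 0.01 before adjustment and a change of 2-fold or more, which are the study's cut-offs. The p-value differs from the study's, which came from a moderated F-test with the experimental replicate as a block. Here it is that of the contrast IR minus IN. Adjusted p-values are Benjamini-Hochberg over all 23999. Errors of differences are the moderated SE. Changes between days were contrasts of a fit over 54 arrays. Exact permutation tests were two-sided over 924 splits. No test allows for litter: IR and IN piglets came from the same sows, and neither sow nor run of the experiment is in the labels.

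Platform annotation named 10069 probesets with 1 symbol (6765 symbols), 198 with several and 13732 with none; 9961 symbols had their Entrez identifier in the RefSeq table, all with the same symbol. The study's supplementary table, made from these arrays, named 135 probesets without a symbol, which stayed out of the list counts. A gene in a list stands for its brightest probeset. Named genes were the 12 largest differences called in each direction, for each list any member called and as many as 4 by ascending p, genes measured by real-time PCR in the study and up to 6 called in each test between days; the remaining called genes, the probesets named by the study's table and the genes given by the change between days outside these were chosen after their values were seen. Fits were tested on simulated data. Plots used matplotlib 3.10.9 under Python 3.11.15. Some called genes are not reported here.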

Additional observations from a re-analysis of the deposited data

Results flagged for a closer look

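Among 250 groups of 6 piglets (IR and IN for 125 named probesets) 1 piglet stood apart in 23 by Dixon's gap ratio, the gap to the nearest piglet over the range, above 0.625. In independent, normally distributed samples about 1 in 20 would pass. These groups are the same piglets seen through many probesets, often of genes that vary together, so the count cannot be set against that rate. IN replicate 3 was the low piglet for PARP3 (gap ratio 0.632), TMEM189 (0.63), CPT1A (0.748), GBP1 (0.817), TAPBP (0.822), TAP1 (0.74), PSMB8 (0.66) and JCHAIN (0.819), and for GBP2 at the probeset named by the study's table (0.794) and at the platform-named one (0.778). GBP2, GBP1, TAPBP, TAP1 and PSMB8 belong to the response to interferon and to class I presentation, and JCHAIN to plasma cells. The same array had the lowest mean correlation with its group, 0.935, and the largest 3′ minus 5′ differences among the IR and IN arrays for GAPDH (0.61) and actin (1.40), and the part of RNA quality was not tested.

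IR replicate 1 was the low piglet for the sterol genes SC5D (0.837), NSDHL (0.723), FDPS (0.722) and CYP51 (0.708). IR replicate 2 was low for PARP9 (0.73) and TAPBP (0.628) and high for TMEM189 (0.658). IR replicate 4 was high for OVOL1 (0.629) and TIAF1 (0.707), and IR replicate 3 low for EXOSC9 (0.639). In IN, replicate 1 was high for OVOL1 (0.683), replicate 6 high for TFRC (0.653) and replicate 2 low for ACO1 (0.773).

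Of 125 named probesets, 14 changed in IR minus IN between day 28 and day 5 and 62 between day 28 and day 56 (unadjusted p under 0.01 and 2-fold, none after adjustment). Many were chosen for their difference at day 28, which enters these changes, so the counts are no independent support. The values of those described above follow. Day 28 minus day 5 was -3.31 and -3.51 for the PDK4 probesets, 1.74 and 1.49 for those of MPDZ, 1.71 for TP53INP2, 1.46 for IRF1, -1.41 for LOC100512700, -1.28 for C6H18orf21 and -1.12 for THG1L. Day 28 minus day 56 was 3.43 for INSIG1, 4.14 for SQLE, 2.99 for ELOVL6, 1.98 for FASN, 2.51 for HMGCS1, 2.52 for MSMO1 and 2.46 for FDPS among the lipid genes. It was 4.79 for DMBT1, 4.65 for PI3, 3.91 for CCL8, 3.90 for GBP2 and 3.14 for CCL2 among the defence genes. For the rest it was 2.97 for TMPRSS15, 2.18 for CPT1A, 1.93 for LOC100522818, 1.79 for OVOL1, 1.64 for LPIN2, 1.21 for ARRDC4, -1.50 for DBP, -1.68 for NEIL1 and -2.62 for RETREG1.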

How the results depend on the processing

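All 119 calls kept their direction in every alternative in which they were tested (113 of them with dim probesets left out), and 64 to 119 stayed called. Called higher and lower were 82 and 37, and leaving out 1 piglet at a time gave 53 to 147 and 23 to 88, with 1 to 7 probesets past an adjusted p of 0.05, the extremes being the omission of IR replicate 3 or IN replicate 3 (53 higher each) and of IN replicate 1. The adjusted count of 1 became 0 with only IR and IN fitted, 16 with all 9 groups in 1 fit (where 64 were called lower) and 2 with dim probesets left out or with an intensity trend and robust variances. A moderated F-test over the 3 groups, the test the study names but here without its block, left 51 higher and 27 lower. Without IN replicates 2 and 6, an alternative chosen after their B cell transcripts were seen, 60 were called lower and CD79B turned to 0.13. For the changes between days, 0 probesets passed the adjusted threshold in either test against 78 and 281 called.

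The correlations of same-numbered IR and IN deviations from their group means ran from -0.137 to 0.16. They compare single numbers between IR and IN only. They therefore cannot show whether neighbouring replicate numbers shared a run of the experiment, which was not tested. With the replicate block 84 were called higher, 38 lower and 2 passed after adjustment, and with the block and only IR and IN, by number or by numbers in twos, 0 passed after adjustment.

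Of 64 named probesets called, 19 kept the call throughout and 45 lost it at least once. Signs turned only for 5 that were not called. CPT1A was -0.10 with array weights and -0.39 to 0.21 with 1 piglet left out. With 1 piglet left out IRF7 ran from -0.013 to 1.39, ISG15 from -0.70 to 1.49 and DBP from -0.30 to 0.069. The causes were not tested. The precision is limited by 6 arrays per group and by the spread of IN, whose median SD over probesets was 0.377 against 0.251 in IR.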
